A study of Mus musculus with 6 samples.

Results

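Myeloid lineage transcription factors are the DNA-binding proteins that set and keep the identity of monocytes, macrophages, granulocytes and dendritic cells. The 9 factors described here were listed by symbol as Spi1, Cebpa, Cebpb, Cebpd, Cebpe, Maf, Zeb2, Klf7 and Runx1. All 9 were found by Ensembl identifier among the 55421 genes of the count table, and all 9 were among the 14469 genes that passed the expression filter and were tested. RNA-seq was performed on tumor-associated macrophages (TAMs), sorted as CD11b+F4/80+ cells at day 15 from tumors formed by implanted fibrosarcoma cells, named M17 in the labels and MC17-51 in the study's methods. For the TAMs of its Shp2 mice the methods describe a gate that also takes only live, CD45+ and Ly6G- cells, which would leave out neutrophils. The comparison asked how gene expression in TAMs differs when PD-1, the inhibitory receptor encoded by Pdcd1, is targeted in myeloid cells. Pdcd1f/f control mice carry the floxed Pdcd1 allele without Cre, and Pdcd1f/fLysMcre mice carry the same floxed allele together with Cre recombinase expressed from the lysozyme M locus, Lyz2, which is active in macrophages and granulocytes. There were 3 libraries of each genotype. The labels do not say whether each library came from 1 mouse or from pooled mice, so p-values measure the spread between these libraries, which may be in part technical.

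PU.1, the ETS factor encoded by Spi1, acts at the top of this network by opening the enhancers of myeloid genes. C/EBP factors bind beside it, with C/EBPα acting in the commitment of progenitors, C/EBPβ and C/EBPδ in inflammatory and emergency responses, and C/EBPε in the late steps of granulocyte maturation. RUNX1 acts with both in blood progenitors, c-MAF maintains programs of mature tissue macrophages and the production of IL-10, ZEB2 is a repressor that maintains macrophage identity and dendritic cell fate, and KLF7 belongs to the zinc finger Krüppel-like factors.

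Library totals were between 41833823 and 51417209 counts. Pdcd1 itself was counted 10, 12 and 15 times in the Pdcd1f/f libraries and 7, 16 and 11 times in the Pdcd1f/fLysMcre libraries, a log2 difference of -0.25 (SE 0.45, edgeR adjusted p = 0.771), and counts per gene do not show the loss of floxed exons alone. Lyz2, the locus that carries Cre, had at least 189889 counts in each Pdcd1f/f library and at most 503 in each Pdcd1f/fLysMcre library, and its neighbor Lyz1 had at most 181 and at least 3521. Of the 8 macrophage markers examined, every one had at least 13515 counts in each library. At an edgeR adjusted p under 0.05, 5 were lower in Pdcd1f/fLysMcre TAMs (Adgre1, Csf1r, Mrc1, C1qa and Apoe), beside 3.01% of all tested genes. Csf1r, Mrc1 and C1qa kept their calls in 2, 3 and 3 of the 6 fits without 1 library. The summed level of these markers was 10381 to 12021 CPM (counts scaled to the library total) in Pdcd1f/f and 7768 to 8356 CPM in Pdcd1f/fLysMcre libraries. In sorted bulk RNA, fewer cells of a type and less RNA per cell cannot be told apart. Compared with Pdcd1f/f TAMs, Xist was lower by 0.99 on the log2 scale in Pdcd1f/fLysMcre TAMs and 4 genes of the Y chromosome were higher (Eif2s3y by 2.31, Ddx3y by 1.81, Uty by 1.79 and Kdm5d by 1.50), so the sex of the mice and the genotype cannot be told apart. All 5 of these genes were counted in every library of both genotypes, Xist at 8675 to 28588 counts and the 4 Y chromosome genes at 144 to 3221. The study's methods state that each experiment used as many male as female mice, but not how they were divided among these libraries. Pdcd1f/f replicate 1 and Pdcd1f/fLysMcre replicate 2 stood apart in base composition. Over 14454 genes, their deviations from the mean of their genotype fell with the GC content of the transcript (Spearman's rho across genes of -0.58 and -0.49), whereas in the other 4 libraries rho was between 0.12 and 0.51.

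The 4 C/EBP members are the only close relatives among the 9 factors. For 3 of them, a stretch of 60 bases that encodes part of the basic region, with which the bZIP domain contacts DNA, is shown to let these related genes be compared. It was read from the transcripts and annotation of GENCODE release M21 (GRCm38), with bases identical in all 3 genes in capitals, and lies at chr7:35120271-35120330 (plus strand) in Cebpa, chr2:167689691-167689750 (plus strand) in Cebpb and chr14:54710710-54710769 (minus strand) in Cebpe.
Cebpa: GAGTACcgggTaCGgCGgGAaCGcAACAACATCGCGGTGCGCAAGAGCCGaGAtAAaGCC
Cebpb: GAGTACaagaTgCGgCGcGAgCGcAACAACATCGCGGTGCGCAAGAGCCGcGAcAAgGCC
Cebpe: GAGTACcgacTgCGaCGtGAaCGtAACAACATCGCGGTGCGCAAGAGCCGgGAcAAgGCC
Of the 60 bases, 48 were identical in all 3 genes, and each pair of genes shared 85% of them. No run of 42 bases, the length of a read, was shared between the transcripts of any pair of the 9 factors, so whole reads matching 1 factor exactly do not match another.

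The levels of the factors were compared as CPM per kilobase of exon. Spi1 (122 ± 18.4, SD, n = 3) and Cebpb (118 ± 15.5) were the most abundant in Pdcd1f/f TAMs, and their libraries overlapped. Cebpa (32.9 ± 3.31) and Zeb2 (31.3 ± 2.45) followed, and they also overlapped. Maf (23.9 ± 0.68), Klf7 (16.0 ± 1.70), Runx1 (8.15 ± 0.26) and Cebpd (2.08 ± 0.35) were each separate from the next in order. Cebpe, the granulocyte factor, had the lowest level, 0.31 ± 0.05. In Pdcd1f/fLysMcre TAMs the order differed at 1 place, since Zeb2 (33.1 ± 0.80) was above Cebpa (25.5 ± 1.50) without overlap of the libraries. Maf (19.7 ± 0.96) and Klf7 (19.5 ± 0.79) kept their order but overlapped.

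**Figure D1:**
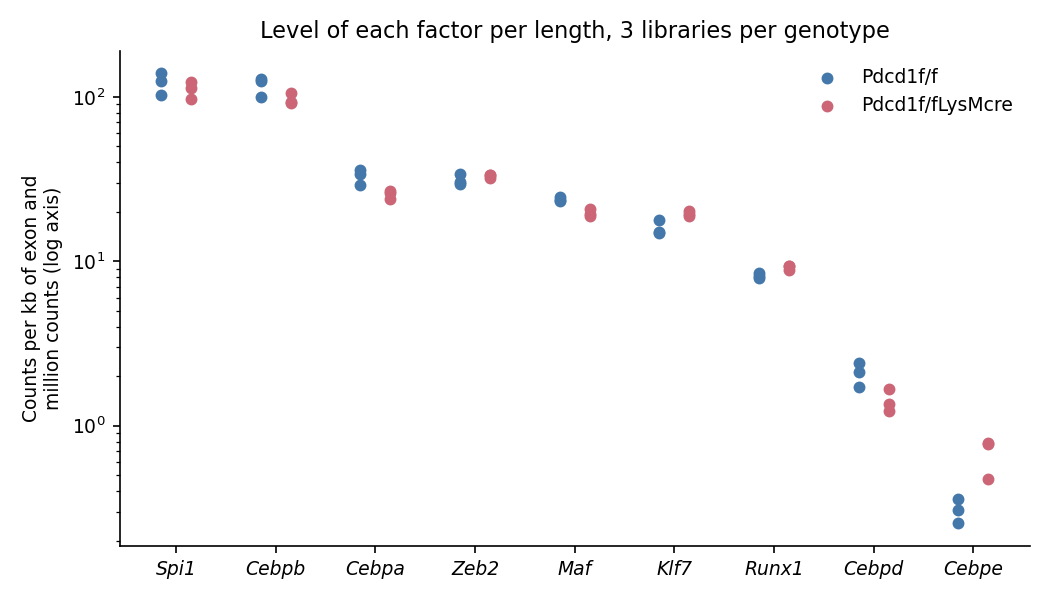
Level of each factor in CPM per kilobase of exon (log axis) in 3 Pdcd1f/f and 3 Pdcd1f/fLysMcre TAM libraries, 1 point per library. Mean Pdcd1f/f levels run from 122 for Spi1 down to 0.31 for Cebpe.

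Maf and Cebpa were lower in Pdcd1f/fLysMcre than in Pdcd1f/f TAMs, by 0.26 and 0.35 on the log2 scale. After an adjustment of each library for GC content and length, Maf kept its call and Cebpa lost it, at -0.14 (edgeR adjusted p = 0.0633). Without this adjustment these were the 2 of 9 factors past the threshold in edgeR's quasi-likelihood test, beside 5.43% of all tested genes in either direction and 3.01% that were lower. No factor was past the threshold as higher, beside 2.42% of all tested genes, although at an unadjusted p under 0.05 there were 3 higher and 4 lower, beside 12.3% and 11.9% of all genes, and DESeq2 called 2 higher (Cebpe and Klf7) and 3 lower (Cebpa, Cebpd and Maf), beside 4.93% and 5.63% of all genes and 10.6% in either direction. The median log2 fold change of the 9 factors was -0.13, and that of all tested genes was 0.00. The normalized counts of the genotypes did not overlap for 6 of 9 factors, 3 lower (Cebpa, Cebpd and Maf) and 3 higher (Cebpe, Klf7 and Runx1), and the same separation was seen in 27.2% of all tested genes (13.1% lower and 14.1% higher). For each of these 6 the two-sided exact permutation test gave p = 0.1, the smallest value that 3 against 3 libraries allow.

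**Figure D2:**
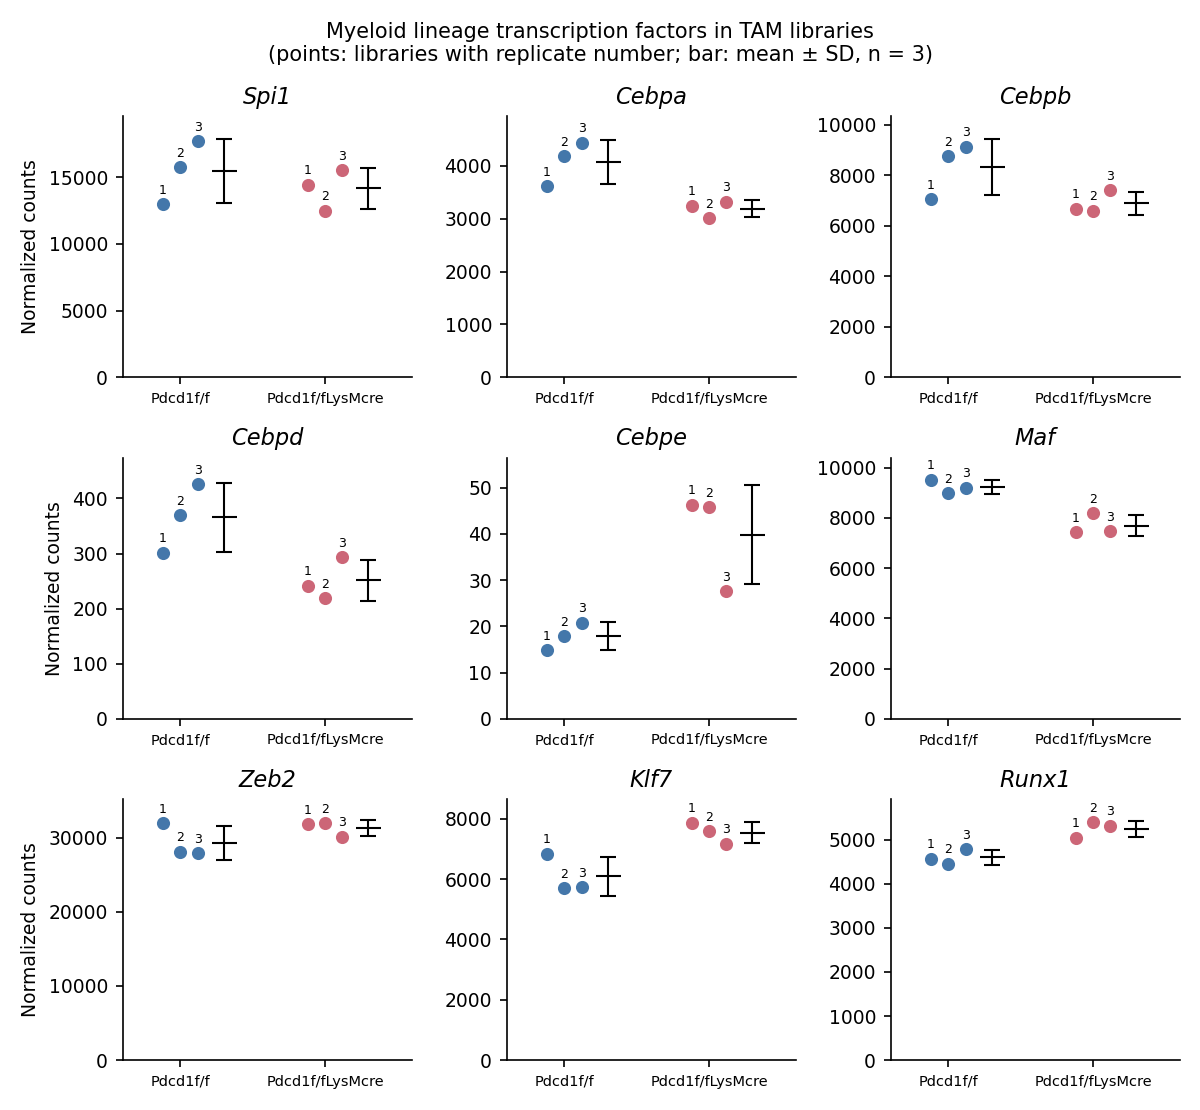
Normalized counts of each factor (vertical axis, starting at 0) in the 3 Pdcd1f/f and 3 Pdcd1f/fLysMcre TAM libraries, with the replicate number above each point and mean ± SD beside them. The genotypes are separate for Cebpa, Cebpd, Cebpe, Maf, Klf7 and Runx1 and overlap for Spi1, Cebpb and Zeb2.

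Spi1 (chr2:91082390-91115756, plus strand) had normalized counts of 12964, 15724.5 and 17691 in the Pdcd1f/f replicates, given here and below in the order of their numbers, and 14422, 12484 and 15533 in the Pdcd1f/fLysMcre replicates. The genotypes overlapped, and the low library of each was the one set apart by base composition. The means were 15460.1 ± 2375 and 14146 ± 1543 (SD, n = 3) and the log2 fold change was -0.13 (SE 0.11, edgeR adjusted p = 0.527).

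Cebpa (chr7:35119293-35121928, plus strand), a gene of 1 exon, had 3615, 4182 and 4432 normalized counts in the Pdcd1f/f replicates and 3244, 3010 and 3321 in the Pdcd1f/fLysMcre replicates. Every Pdcd1f/f library was above every Pdcd1f/fLysMcre library. The means of 4076 ± 419 and 3192 ± 162 (SD, n = 3) gave a log2 fold change of -0.35 (SE 0.08, edgeR adjusted p = 0.0380). The call was lost without any 1 of 5 libraries, with edgeR adjusted p = 0.190, 0.145, 0.141, 0.134 and 0.0598 without Pdcd1f/f replicate 2, Pdcd1f/f replicate 3, Pdcd1f/fLysMcre replicate 1, Pdcd1f/fLysMcre replicate 2 and Pdcd1f/fLysMcre replicate 3, and it was kept without Pdcd1f/f replicate 1 (0.00135). The log2 fold change was between -0.44 and -0.29 in these 6 fits.

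Cebpb (chr2:167688915-167690418, plus strand) had 7045, 8746 and 9130 normalized counts in the Pdcd1f/f replicates and 6670, 6597 and 7414 in the Pdcd1f/fLysMcre replicates. Pdcd1f/f replicate 1 lay within the range of the Pdcd1f/fLysMcre libraries. The log2 fold change was -0.27 (SE 0.10, edgeR adjusted p = 0.128). Exons of Tmem189 on the opposite strand cover 20.7% of the exon length of Cebpb, and Tmem189 had 6470 to 7247 counts per library, so its reads could be mixed with those of Cebpb if strand was not used in counting, which is not stated.

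Cebpd (chr16:15887286-15891031, plus strand) was a low-abundance member, with 301, 370 and 426 normalized counts in the Pdcd1f/f replicates and 241, 219 and 293 in the Pdcd1f/fLysMcre replicates. The highest Pdcd1f/fLysMcre library was just under the lowest Pdcd1f/f library. The means were 366 ± 62.4 and 251 ± 37.9 (SD, n = 3) and the log2 fold change was -0.54 (SE 0.15, edgeR adjusted p = 0.0703), short of the threshold. The opposite-strand gene Spidr overlaps 15.0% of the exon length of Cebpd and had 1465 to 2058 counts per library. Reads in the shared stretch could likewise be mixed or left out if strand was not used in counting.

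Cebpe (chr14:54710360-54712174, minus strand), the factor of granule gene transcription in granulocytes, had the fewest reads, with 16, 16 and 19 raw counts in the control and 50, 48 and 28 in the Pdcd1f/fLysMcre libraries. Each Pdcd1f/fLysMcre library was above each Pdcd1f/f library, and replicate 3 was the nearest to the controls. Normalized counts were 17.8 ± 2.99 and 39.8 ± 10.7 (SD, n = 3), a log2 fold change of 1.16 (SE 0.32, edgeR adjusted p = 0.0651). C/EBPε is known for secondary granule genes, and the primary granule genes are made earlier in granulocytes under other factors. Of 10 granule genes examined, the primary granule genes Elane, Mpo and Ctsg and the secondary granule genes Camp, Ltf and Ngp were under the expression filter. The primary granule gene Prtn3, at 5 to 18 raw counts, had 9.03 ± 3.82 and 16.2 ± 0.84 (SD, n = 3) after normalization and did not pass the threshold, at 0.84 on the log2 scale (SE 0.41, edgeR adjusted p = 0.239), or 1.003 with GC and length offsets (0.129).

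Maf (chr8:115682942-115707794, minus strand) had 9516, 8983 and 9204 normalized counts in the Pdcd1f/f replicates and 7423, 8176 and 7480 in the Pdcd1f/fLysMcre replicates. The genotypes were well separated, since the lowest Pdcd1f/f library was above the highest Pdcd1f/fLysMcre library by more than the SD of either genotype. Means of 9235 ± 268 and 7693 ± 419 (SD, n = 3) gave a log2 fold change of -0.26 (SE 0.06, edgeR adjusted p = 0.0391). The call was kept without Pdcd1f/f replicate 1 (edgeR adjusted p = 0.0170) or Pdcd1f/fLysMcre replicate 2 (0.0360) and lost without Pdcd1f/f replicate 2 (0.145) or 3 (0.116) or Pdcd1f/fLysMcre replicate 1 (0.176) or 3 (0.0982). Over these 6 fits the log2 fold change was between -0.31 and -0.24.

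Zeb2 (chr2:44983632-45117395, minus strand) had 31908, 28069 and 27919 normalized counts in the Pdcd1f/f replicates and 31829, 31941 and 30119 in the Pdcd1f/fLysMcre replicates. Pdcd1f/f replicate 1 was as high as the Pdcd1f/fLysMcre libraries, and the genotypes overlapped. The log2 fold change was 0.10 (SE 0.07, edgeR adjusted p = 0.414).

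Klf7 (chr1:64029447-64122282, minus strand), which lies on the same chromosome as Pdcd1 at a distance of 29.9 Mb, had 6834, 5698 and 5736 normalized counts in the Pdcd1f/f replicates and 7864, 7577 and 7167 in the Pdcd1f/fLysMcre replicates. Every Pdcd1f/fLysMcre library was above every Pdcd1f/f library, with Pdcd1f/f replicate 1 the nearest. The means were 6089 ± 645 and 7536 ± 350.3 (SD, n = 3), with a log2 fold change of 0.31 (SE 0.08, edgeR adjusted p = 0.0517), just outside the threshold. The opposite-strand transcript Gm26649 covers 39.3% of the exon length of Klf7, and no counts were available for it. As for Cebpb and Cebpd, reads in the shared stretch could be mixed or left out if strand was not used in counting.

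Runx1 (chr16:92601466-92826149, minus strand) had 4567, 4453 and 4787 normalized counts in the Pdcd1f/f replicates and 5046, 5390.5 and 5309 in the Pdcd1f/fLysMcre replicates. The genotypes did not overlap. The means were 4603 ± 170 and 5249 ± 180 (SD, n = 3), and the log2 fold change was 0.19 (SE 0.06, edgeR adjusted p = 0.0924).

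Because 2 libraries, 1 of each genotype, were set apart by base composition, each factor was set beside tested genes of similar GC content. The median log2 fold change of all tested genes went from 0.13 in 986 transcripts under 40% GC to -0.22 in 451 transcripts of 60% to 65% GC. Cebpa has 62.6% GC, and the 327 tested genes within 2 percentage points of it had a median of -0.22, beside its own -0.35. Spi1 has 58.9% GC and a value of -0.13, beside a median of -0.17 in 1409 genes. Cebpb, with 67.2% GC, had -0.27 beside a median of -0.14 in 42 genes. Maf, with 47.4% GC, had -0.26 beside a median above 0, which was 0.05 in 3144 genes. Klf7 (45.3% GC) had 0.31 beside 0.07, Runx1 (46.4%) 0.19 beside 0.06, Zeb2 (40.6%) 0.10 beside 0.12, Cebpd (51.6%) -0.54 beside -0.03, and Cebpe (61.5%) 1.16 beside -0.21.

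**Figure D3:**
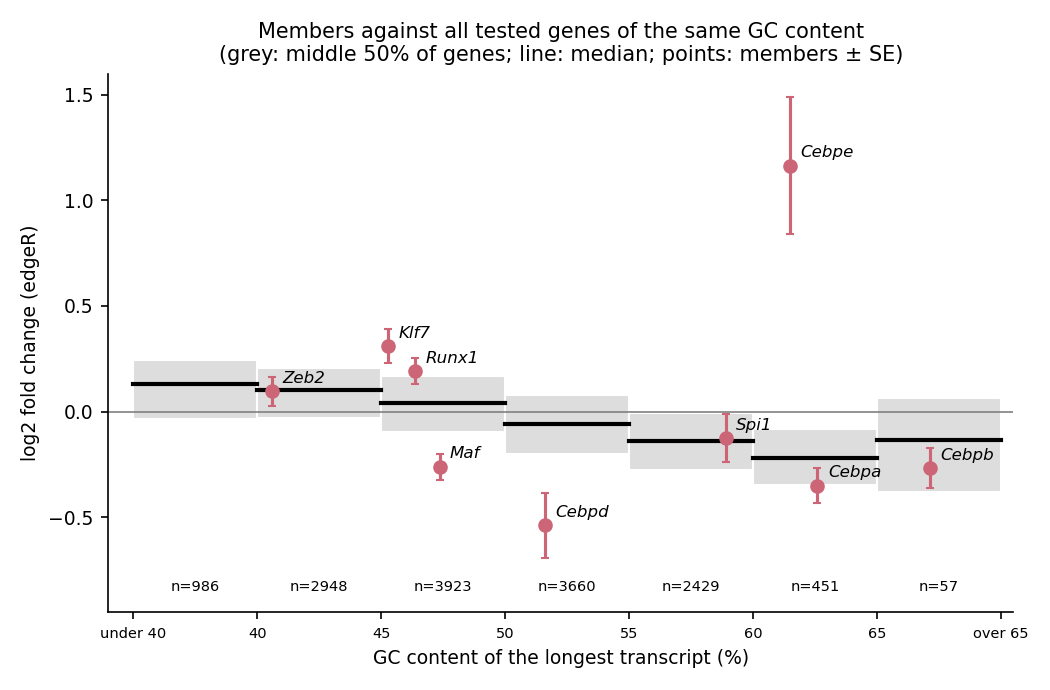
Log2 fold change of each factor (points ± SE, edgeR) against the GC content of its longest transcript in percent, over the median (line) and middle 50% (grey) of all tested genes in each GC class. Spi1, Cebpb and Zeb2 lie within the grey range, Cebpa lies at its lower edge, and Maf, Klf7, Runx1, Cebpd and Cebpe lie outside it.

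The fit was repeated with an offset for each gene and library that takes out the library's dependence on GC content and gene length. The offset was fitted to deviations from the mean of all 6 libraries, without regard to genotype. A genotype difference that follows GC content or length is therefore taken out as well. Past the threshold were then 5 of 9 factors, beside 19.0% of all genes (7.76% lower and 11.2% higher). Maf (-0.28, SE 0.04, edgeR adjusted p = 2.6e-04) and Cebpd (-0.48, SE 0.12, 0.0124) were lower. Klf7 (0.26, SE 0.05, edgeR adjusted p = 9.8e-04), Cebpe (1.34, SE 0.35, 0.0125) and Runx1 (0.16, SE 0.05, 0.0457) were higher. Cebpa moved to -0.14 (SE 0.05, edgeR adjusted p = 0.0633) and lost its call. With the replicate number added to this fit as a block, Cebpa was called, at -0.15 (SE 0.05, edgeR adjusted p = 0.0401). Spi1 turned to 0.04 (SE 0.04, edgeR adjusted p = 0.565), Cebpb moved to -0.04 (SE 0.05, 0.670) and Zeb2 to 0.00 (SE 0.04, 0.983). Maf and Klf7 were past the threshold in this fit without any 1 of the 6 libraries, with log2 fold changes of -0.33 to -0.25 and 0.23 to 0.31. The calls of Cebpd, Cebpe and Runx1 were kept in 3, 3 and 2 of the 6 fits. After this adjustment the libraries of the genotypes did not overlap for 5 of 9 factors, 2 higher and 3 lower, since Runx1 came to overlap, beside 34.9% of all genes (20.6% higher and 14.3% lower). When both libraries set apart by base composition were instead left out, 8 of 9 factors passed the threshold (Cebpe did not), beside 26.2% of all genes in either direction, 12.5% higher and 13.6% lower, and Cebpa had a log2 fold change of -0.39 (edgeR adjusted p = 6.7e-05).

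**Figure D4:**
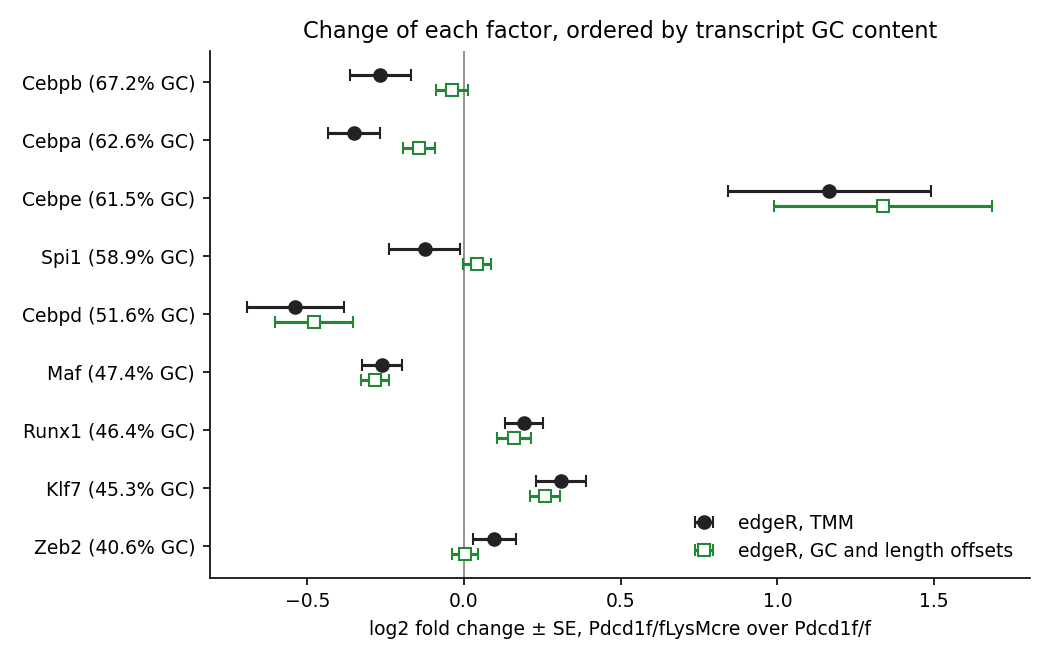
Log2 fold change ± SE of each factor, Pdcd1f/fLysMcre over Pdcd1f/f, in the edgeR fit with TMM scaling (filled circles) and with GC and length offsets (open squares), ordered by GC content. Cebpa, Cebpb and Spi1, at 58.9% GC or more, move toward or past 0 with the offsets, Cebpe (61.5% GC) moves away from 0, from 1.16 to 1.34, and Maf stays at -0.26 and -0.28.

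Promoter windows of 300 bases (250 before and 50 after a start site, RefSeq, GRCm38.p6) were found for 5 of the 9 factors, Klf7, Zeb2, Cebpb, Cebpa and Runx1. They were searched on both strands for TTGCNNAA (C/EBP), GAGGAAGT (PU.1), TGTGGTT (RUNX), TGCTGAC (MAF) and GGGGNGGGG (KLF). Klf7 and Runx1, both with separate genotypes in the direction of higher counts, are shown because a window of each holds the letters of their own family's motif, and Cebpa is shown as the factor past the threshold that has a window. The windows, 5′ to 3′ on the strand of the gene with matches in capitals, are chr1:64121340-64121639 (minus strand) for Klf7, chr16:92826025-92826324 (minus strand) for Runx1 and chr7:35119043-35119342 (plus strand) for Cebpa.
Klf7: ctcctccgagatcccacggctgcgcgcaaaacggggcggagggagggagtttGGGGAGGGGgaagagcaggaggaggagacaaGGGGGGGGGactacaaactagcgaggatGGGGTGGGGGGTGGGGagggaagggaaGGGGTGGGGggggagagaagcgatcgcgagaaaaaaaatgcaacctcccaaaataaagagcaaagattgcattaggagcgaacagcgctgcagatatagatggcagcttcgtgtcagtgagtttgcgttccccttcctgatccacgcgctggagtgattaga
Runx1: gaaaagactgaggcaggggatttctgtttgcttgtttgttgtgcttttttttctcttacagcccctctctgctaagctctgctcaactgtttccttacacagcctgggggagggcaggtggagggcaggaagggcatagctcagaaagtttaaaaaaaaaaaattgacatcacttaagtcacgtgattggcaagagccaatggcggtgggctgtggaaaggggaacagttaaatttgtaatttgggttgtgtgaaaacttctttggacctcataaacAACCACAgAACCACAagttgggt
Cebpa: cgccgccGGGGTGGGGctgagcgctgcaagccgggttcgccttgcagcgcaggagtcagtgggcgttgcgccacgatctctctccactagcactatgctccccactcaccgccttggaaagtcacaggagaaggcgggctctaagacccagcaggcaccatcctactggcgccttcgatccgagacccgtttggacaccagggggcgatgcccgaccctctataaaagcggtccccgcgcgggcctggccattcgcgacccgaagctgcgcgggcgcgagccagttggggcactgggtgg
The Klf7 window held GGGGNGGGG at 5 positions, of which the pair starting at bases 112 and 119 overlap, and the Cebpa window held it once, whereas 22.4% of 32851 promoter windows held it. GGGGNGGGG was also held by 3 of the 4 Zeb2 windows, at 16, 16 and 3 positions. The first and second of these windows overlap, and their 16 positions are overlapping matches within the same unbroken run of G. The 3 positions of the third window also overlap one another. Of the 2 Runx1 windows, the one shown held TGTGGTT at 2 positions, both on the other strand and therefore read as AACCACA, and the other did not hold it, beside 5.27% of all windows. TTGCNNAA was matched in 1 of the 4 Zeb2 windows and in 10.8% of all windows, and GAGGAAGT and TGCTGAC, in 3.20% and 4.67% of all windows, were not matched in any window of the 5 factors. A match describes the letters and not a binding site.

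Related transcription factors were examined in 7 lists with 62 tested genes, of which 2 were higher and 1 was lower, beside 2.42% and 3.01% of all genes. Spic, the PU.1 relative of iron-recycling macrophages, rose from 604 ± 59.7 to 869 ± 71.9 normalized counts (SD, n = 3), by 0.52 on the log2 scale (SE 0.10, edgeR adjusted p = 0.0150). Jun, the AP-1 subunit that partners with PU.1, fell from 25009 ± 2596 to 18054 ± 1766, by 0.47 on the log2 scale (SE 0.09, edgeR adjusted p = 0.0167). These were the calls among 14 ETS factors and PU.1 partners. The ETS factor Ets2, with the most normalized counts of that list, had 0.09 (SE 0.06, edgeR adjusted p = 0.390). Runx2 rose from 450.1 ± 30.4 to 608 ± 53.4, by 0.43 on the log2 scale (SE 0.10, edgeR adjusted p = 0.0343), and was the 1 call among 5 genes of the RUNX group, whose most abundant gene was the core-binding subunit Cbfb (0.12, SE 0.07, edgeR adjusted p = 0.320). Each of these 3 calls was kept without Pdcd1f/f replicate 1, the calls of Spic and Jun were also kept without Pdcd1f/fLysMcre replicate 3, and each was lost when any other library was left out. With GC and length offsets all 3 were past the threshold, with log2 fold changes of 0.45, -0.35 and 0.46. Ets2 was then also past it, at 0.16 (edgeR adjusted p = 0.00975). Its list then had 3 genes higher and 2 lower, beside 11.2% and 7.76% of all genes.

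Among 10 tested C/EBP relatives and regulators, 11 KLF family genes, 9 ZEB partners and dendritic cell factors, 7 progenitor and granulocyte factors, and 6 genes of the MAF family, edgeR called 0 genes. At an unadjusted p under 0.05 there were 5, 8, 2, 0 and 1, beside 24.2% of all genes, and DESeq2 called 2, 3, 0, 0 and 0, beside 10.6%. With GC and length offsets edgeR called 4, 4, 1, 0 and 1, and over all 7 lists 11 genes were then higher and 5 lower, beside 11.2% and 7.76% of all genes. The genes of these lists with the most normalized counts in Pdcd1f/f TAMs, not scaled to length, were Trib1, which directs C/EBPα to degradation (-0.07, SE 0.06, edgeR adjusted p = 0.478), Klf6 (0.03, SE 0.07, 0.825), Id2, an inhibitor of E proteins (-0.02, SE 0.07, 0.866), Ikzf1 (-0.07, SE 0.06, 0.533), and Bach1, a repressor that pairs with small MAF proteins (0.06, SE 0.06, 0.556). The median log2 fold changes of the 7 factor lists were between -0.06 and 0.06. With GC and length offsets the medians of the KLF family and of the progenitor and granulocyte factors were 0.17 and 0.13. Those of the other factor lists were then between 0.00 and 0.05, beside 0.02 for all tested genes.

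Genes set beside these factors as targets, or as granule genes in the case of C/EBPε, were read from 4 lists. Among 11 tested genes assigned to MAF, 9 fell and 1 rose, beside 3.01% and 2.42% of all genes, with a median log2 fold change of -0.60. With GC and length offsets the counts were the same, beside 7.76% and 11.2% of all genes, and the median was -0.45. The genes that fell were the complement subunits C1qa (-0.61), C1qb (-0.55) and C1qc (-0.60), the scavenger receptors Cd163 (-1.10), Stab1 (-0.71) and Mrc1 (-0.31), the efferocytosis receptor Mertk (-0.61) and its ligand Gas6 (-0.59), and the transglutaminase F13a1 (-0.73). Il10 was the gene that rose, by 0.36 on the log2 scale (SE 0.08, edgeR adjusted p = 0.0311), and the chemokine receptor gene Ccr2 had -0.01 (SE 0.09, edgeR adjusted p = 0.948). Cd163 fell from 4648 ± 263 to 2161 ± 51.7 normalized counts (SD, n = 3). In fits without 1 library, 4 to 9 genes of this list were called lower, with the 4 reached without Pdcd1f/f replicate 2 or Pdcd1f/fLysMcre replicate 1, and Il10 was called higher only without Pdcd1f/f replicate 1. The list's median was between -0.71 and -0.51 in these fits. Without Pdcd1f/f replicate 2 or Pdcd1f/fLysMcre replicate 1, 224 and 222 of all genes were called, against 786 in the main fit. Cd163, Stab1, F13a1 and Mertk were called in all 6 of these fits. C1qa and Mrc1 are also among the macrophage markers whose summed level was lower, and the part of that change in the values of Maf and of this list was not tested.

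Of 12 genes assigned to C/EBPα and C/EBPβ, 3 rose and 2 fell, beside 2.42% and 3.01% of all genes. With GC and length offsets these were 4 and 3, beside 11.2% and 7.76% of all genes. The inflammatory genes Il6 (0.56), Il1b (0.31) and Ptgs2 (0.38), which encodes cyclooxygenase, rose. The receptor gene Csf3r (-0.51) and the acute phase gene Saa3 (-1.53) fell, Saa3 from 5641 ± 147 to 1954 ± 137 normalized counts (SD, n = 3), and its edgeR adjusted p was past the threshold in each of 6 fits without 1 library. Il1b was the most abundant of the list, with 60327 ± 1133 and 74620 ± 2346 normalized counts (edgeR adjusted p = 0.0128). Without Pdcd1f/f replicate 2, 0 genes of this list were called higher and 1 was called lower, and without Pdcd1f/fLysMcre replicate 1 these numbers were 0 and 2. Among 12 genes assigned to PU.1, 2 fell, beside the same 3.01%, and with the offsets 1 was higher and 4 were lower. Csf1r, which encodes the M-CSF receptor, fell by 0.32 and the adaptor gene Tyrobp fell by 0.33 on the log2 scale (edgeR adjusted p = 0.0308 and 0.0405). Both calls were kept without Pdcd1f/f replicate 1, that of Csf1r also without Pdcd1f/fLysMcre replicate 3, and neither was kept without any of the others. The median of the PU.1 list was -0.07 and that of the C/EBP list was -0.05. Of the granule genes, 4 were tested and 1 fell, again beside 3.01%. Prtn3 was described beside Cebpe, and Lcn2, of the secondary granules, had 0.04 (SE 0.16, edgeR adjusted p = 0.896). Mmp8, a neutrophil collagenase, fell from 2317 ± 86.0 to 1659 ± 87.4 normalized counts, by 0.48 on the log2 scale (SE 0.07, edgeR adjusted p = 0.00393), whereas the most abundant, Mmp9, had -0.13 (SE 0.07, edgeR adjusted p = 0.296).

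**Figure D5:**
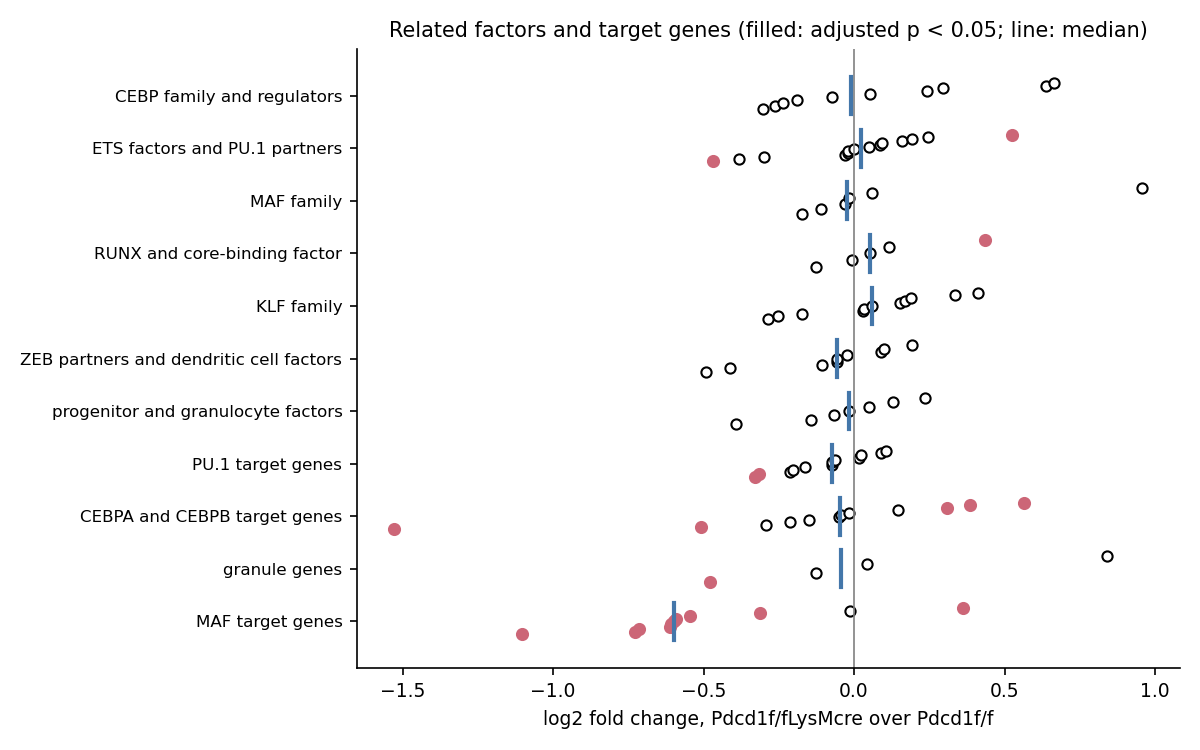
Log2 fold change (edgeR, Pdcd1f/fLysMcre over Pdcd1f/f) of each tested gene of the 7 lists of related factors and the 4 lists of target and granule genes, filled where past the threshold, with the list's median as a line. The MAF target genes lie around a median of -0.60 and the medians of the other 10 lists are between -0.07 and 0.06.

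Markers of other cells were compared as summed CPM. The 9 neutrophil markers summed to 89.5 to 97.2 CPM in Pdcd1f/f and 79.9 to 84.1 CPM in Pdcd1f/fLysMcre libraries, with Ly6g and Camp at 0 to 3 counts each. Csf3r was the 1 of them past the threshold, and without it the other 8 summed to 36.8 to 48.1 and 45.5 to 48.4 CPM, which overlap. The part of other cells in the value of Cebpe was not tested. The 5 plasmacytoid dendritic cell markers had the highest sum after the macrophage markers, 234 to 259.5 and 210.1 to 221 CPM, nearly all from Bst2 and Tcf4, whereas Siglech was at 0 to 2 counts and Ly6d at 0 to 1. The 7 conventional dendritic cell markers summed to 5.71 to 7.75 and 7.25 to 8.81 CPM, with Xcr1 at 0 to 3 counts. T and NK cell markers were at 13.4 to 15.1 and 12.1 to 14.5 CPM, stromal markers at 65.8 to 71.0 and 61.8 to 68.9 CPM, and endothelial markers at 41.8 to 44.2 and 34.1 to 35.7 CPM. Of these, the collagen gene Col1a2 (-1.001, edgeR adjusted p = 0.0121) and the endothelial adhesion gene Pecam1 (-0.62, 0.00340) were lower in Pdcd1f/fLysMcre TAMs. B cell markers were at 7.43 to 8.44 and 6.35 to 7.49 CPM, and mast cell and basophil markers at 4.06 to 4.35 and 3.60 to 5.70 CPM.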

How the data were processed

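TAMs of 3 Pdcd1f/f and 3 Pdcd1f/fLysMcre mice or groups of mice were sequenced as stranded polyA libraries in paired-end reads of 42 bases. According to the methods and the labels, the authors checked reads with FastQC (0.11.5), removed adapters with Cutadapt (2.5), aligned to GRCm38 (mm10) with STAR (2.7.3a) and deposited raw counts per Ensembl gene from featureCounts (Subread 1.6.2). The use of strand, of multi-mapped reads and of reads that overlap 2 genes in counting is not given in the sources used here. Without strand, reads in stretches shared by opposite-strand genes could be mixed or left out. The authors also deposited normalized counts of 16552 genes, a signal made by dividing each library's counts by 1 size factor (DESeq2 1.24.0). These are the normalized counts printed.

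Raw counts were tested with edgeR (4.0.16, R 4.3.3): filterByExpr (minimum count 10, minimum total 15), TMM scaling, robust glmQLFit, the two-sided glmQLFTest and Benjamini-Hochberg adjustment over 14469 genes, with a threshold of 0.05. SE is the log2 fold change divided by the root of F. Lengths, GC content and positions came from GENCODE M21. GC and length offsets came from a loess fit per library (span 0.5) over 14454 genes with an annotation. Single values were compared by exact permutation with scipy (1.17.1). Alternatives were other scalings and filters, DESeq2 (1.42.0), limma-trend (limma 3.58.1) on log2(normalized count + 1), a replicate block, the offsets, a threshold of 0.01 and leaving out libraries. The scripts were tested on simulated data. A gene and a sequence were left out of the lists and comparisons and are not reported here.

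The members, lists and motifs were chosen with earlier results of these data known. Named beside the members are the called genes and the gene with the most normalized counts of each list, the nearest gene in pattern to each member, the marker genes and the genes that check the labels. Other list genes named were chosen after their values were seen (Ccr2, Elane, Mpo, Ctsg, Prtn3, Lcn2, Camp, Ltf and Ngp). The offsets with each library left out were added after the data were seen.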

Additional observations from a re-analysis of the deposited data

How the results depend on the processing

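Direction was kept under every alternative for Cebpa, Cebpb, Cebpd, Cebpe, Maf, Klf7 and Runx1. Spi1 turned to a log2 fold change of 0.0415 with GC and length offsets, to 0.0424 with offsets and a replicate block, and to 0.00783, 0.0328, 0.0741, 0.0324, 0.0601 and 0.0308 with offsets and 1 library left out (Pdcd1f/f replicates, then Pdcd1f/fLysMcre replicates), and Zeb2 turned to -0.0287 and -0.0234 in 2 of those 6 fits (without Pdcd1f/f replicate 1 and without Pdcd1f/fLysMcre replicate 3). Over 16 alternatives, edgeR, DESeq2 or limma called Maf in 12 (adjusted p 2.6e-04 to 0.176), Cebpa in 10 (6.7e-05 to 0.190), Cebpd in 7 (0.00212 to 0.250), Klf7 in 7 (6.1e-05 to 0.237), Cebpe in 5 (0.0125 to 0.216), Cebpb in 3 (2.8e-04 to 0.670), Runx1 in 3 (0.0146 to 0.357), Spi1 in 1 (0.0426 to 0.951) and Zeb2 in 1 (0.0248 to 0.983). Against 2 factors and 786 genes called by edgeR, any gene with 1 count gave 6 and 1951, DESeq2 gave 5 and 1528, GC and length offsets gave 5 and 2743, leaving out both libraries set apart by GC content gave 8 and 3757, and a threshold of 0.01 gave 0 and 283. Leaving out 1 library gave 0 to 5 factors and 222 to 3181 genes, with the most without Pdcd1f/f replicate 1, and, with offsets, 3 to 4 factors and 3392, 1511, 1786, 2094, 1950 and 2055 genes. The cause was not tested. The replicate block gave 4 factors (Cebpa, Cebpd, Maf and Klf7) and 1027 genes. With offsets it gave 6 factors (Cebpa, Cebpd, Cebpe, Maf, Klf7 and Runx1) and 2825 genes. However, the labels do not say whether the replicate numbers pair mice. The deviations of same-numbered libraries from their genotype's mean correlated across genes at -0.01, -0.10 and 0.22. The highest correlation, 0.24, was between Pdcd1f/f replicate 1 and Pdcd1f/fLysMcre replicate 2, both set apart by GC content. Since base composition enters these correlations, they cannot decide whether the numbers pair mice. Cebpe had the fewest counts of the members, 16 to 50.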

Other observations

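For each factor the tested gene with the most similar pattern was found as the smallest root-mean-square difference of log2 CPM, centred on the gene's mean, over the 6 libraries and 14468 other genes. The nearest to Maf was Ifngr1, which encodes a subunit of the interferon-γ receptor (0.0189), and it was lower in Pdcd1f/fLysMcre TAMs by 0.28 on the log2 scale (edgeR adjusted p = 0.0254). The nearest to Klf7 was Rel, the NF-κB subunit c-Rel (0.0260), with 0.30 (edgeR adjusted p = 0.0697). Tle3, a Groucho co-repressor, was nearest to Cebpa (0.0225), with -0.34 (edgeR adjusted p = 0.0528), and Keap1, the inhibitor of NRF2, was nearest to Cebpb (0.0233), with -0.29 (0.137). The nearest to Cebpd was Slc12a9 (0.0365), with -0.53 (edgeR adjusted p = 0.0446). Nearest to Spi1 was the clathrin adaptor gene Ap2a1 (0.0113), to Zeb2 the ubiquitin ligase gene Dtx3l (0.0114) and to Runx1 the histidyl-tRNA synthetase gene Hars (0.0117). The low-count Cebpe had the least similar nearest gene, Cd5 (0.152), with 1.01 (edgeR adjusted p = 0.0331). Keap1 and Ap2a1 have 58.0% and 59.3% GC, beside 67.2% in Cebpb and 58.9% in Spi1. These distances describe 6 libraries and carry no test. The genotype difference is part of the pattern that was matched. The fold changes and adjusted p-values of these nearest genes therefore follow from how they were chosen and are not separate results.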
